A study of Mus musculus with 6 samples.

Results

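The claudins described here are 10 genes, Cldn1, Cldn2, Cldn3, Cldn4, Cldn7, Cldn8, Cldn10, Cldn12, Cldn16 and Cldn19, of 18193 genes named on the array. They were picked by name, with no signal used in the rule, and where several probe sets measured a gene the brightest on average was taken. Claudins are membrane proteins that form the strands of the tight junction. They seal the space between epithelial cells or line pores through it, and each segment of the renal tubule carries its own mixture, which sets how sodium, chloride, calcium, magnesium and water pass between the cells. In the collecting duct, claudins 3, 4, 7 and 8 are the usual members. There claudin-8 is known to recruit claudin-4 to the junction, and the pair forms a path for chloride.

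The 6 samples were mpkCCD cells, a mouse line from the cortical collecting duct, with 1 Affymetrix array for each line. Clone 2 was labelled as not expressing the vasopressin-regulated water channel aquaporin 2 (gene Aqp2). Clones 3, 9, 10 and 11 and the original cells were labelled as expressing it, and all 6 lines were grown with dDAVP, an analog of vasopressin (0.1 nM, 5 days). Each clone is a single colony, so a trait of clone 2 cannot be told apart from its label. For clone 2, p-values rest on the spread among the 5 expressing lines, in which line and culture differences are mixed. Clone 2, with 1 array, adds nothing to this spread. The limma fit draws the spread of each probe set toward that of probe sets of similar signal. Values are MAS5 signals in linear units, with medians over all probe sets between 79.6 and 88.6 per array. Aqp2 had 159.3 in clone 2, against 1698 in clone 3, 4683 in clone 9, 1066 in clone 10, 6578 in clone 11 and 3822 in the original cells. The filter on low signal, set at the median, kept 22518 of 45037 probe sets. It kept 11 of 12 principal cell markers, 0 of 6 of the thick ascending limb and 1 of 10 of the proximal tubule. It also kept 3 of 10 intercalated cell and 1 of 3 distal convoluted tubule markers. Of the parietal cell and podocyte list 2 of 4 on the array passed, and of the fibroblast and mesenchymal list 2 of 8. In bulk RNA, fewer cells that make a transcript and less transcript per cell cannot be told apart.

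None of the claudins tested passed between clone 2 and the expressing lines, although signals ranged from almost level across the lines to over 10-fold apart. A mean signal above 85.5 over the 6 arrays was required for testing, and 7 of the 10 claudins met it, Cldn1, Cldn2, Cldn3, Cldn4, Cldn7, Cldn8 and Cldn12. Of these, 0 were called by limma at an adjusted p under 0.05, and 1, Cldn4, had an unadjusted p under 0.05, as 20% of all tested probe sets did. Over all 22518 probe sets tested, 2.49% were called, 0.817% as higher and 1.67% as lower in clone 2. Cldn10, Cldn16 and Cldn19 were too low on average to be tested. Clone 2 lay outside the range of the 5 expressing lines for 7 of the 10 claudins, above it for 5 and below it for 2. Of all probe sets 43.3% did so, 18.9% above and 24.5% below. Among the 7 tested claudins it lay above the range for 4 and below it for 1, where 53.6% of tested probe sets lay outside, 24.3% above and 29.3% below.

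**Figure D1:**
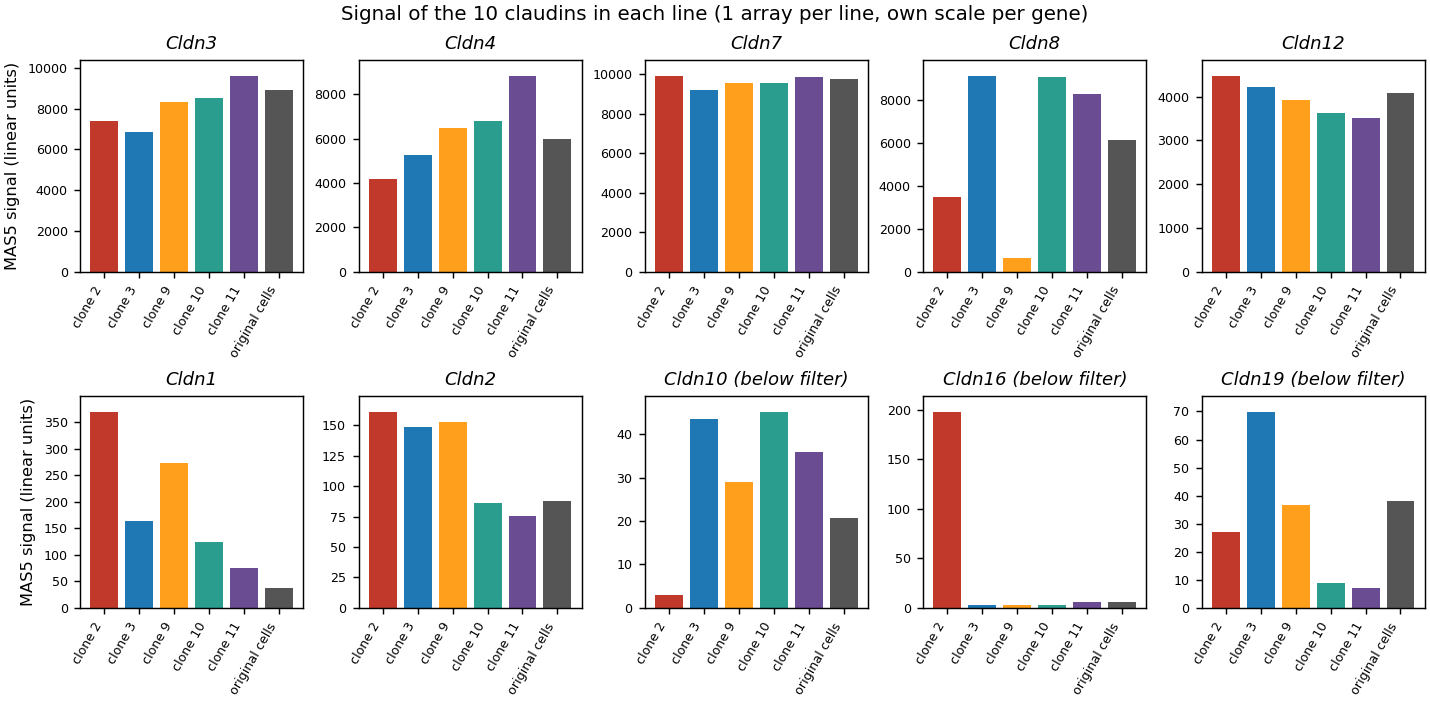
Each panel plots the MAS5 signal (linear units, axis from 0, own scale per gene) of 1 claudin in clone 2 and in the 5 expressing lines, as 1 bar per line and array. Cldn7 is nearly level across the lines, Cldn8 is lowest in clone 9 at 614.9, and Cldn16 stands at 198 in clone 2, against at most 6.12 in any expressing line.

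Among the collecting duct claudins, Cldn7, whose loss in mice causes renal salt wasting, hardly varied. Its signal was 9928 in clone 2, against 9215 in clone 3, 9540 in clone 9, 9579 in clone 10, 9883 in clone 11 and 9782 in the original cells. Clone 2 was the highest line, just above clone 11, and only the step from clone 3 up to clone 9 exceeded the spread among the expressing lines. The expressing lines averaged 9600 ± 258 (SD, n = 5), and clone 2 differed by 0.05 on the log2 scale (limma, SE 0.102, adjusted p = 0.829). Its 95% interval ran from -0.18 to 0.28. The SD among the expressing lines was 0.0389 on the log2 scale, below that of all but 0.546% of the probe sets tested, whose median was 0.204.

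Cldn4, the claudin that contributes to the chloride path, was lowest in clone 2. Its signal was 4193 in clone 2, against 5245 in clone 3, 6479 in clone 9, 6796 in clone 10, 8839 in clone 11 and 5971 in the original cells, which averaged 6666 ± 1349 (SD, n = 5). The groups did not overlap, and the lowest and highest lines were also those with the lowest and highest Aqp2. The log2 difference was -0.64 (SE 0.229, 95% interval -1.16 to -0.13, unadjusted p = 0.0199), and it did not pass after adjustment over all probe sets (limma adjusted p = 0.165). In the order of the lines, the steps from clone 2 to clone 3 (0.32) and from clone 10 to clone 11 (0.38) exceeded the SD among expressing lines of 0.278 on the log2 scale. The lines between did not differ from their neighbours beyond that spread.

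Cldn3, which tightens the junction, gave a smaller difference of the same sign. It had 7398 in clone 2, against 6838 in clone 3, 8339 in clone 9, 8520 in clone 10, 9616 in clone 11 and 8928 in the original cells. Clone 2 lay between clone 3 and the other lines, and no step between neighbouring lines exceeded the SD of 0.183. The log2 difference was -0.18 (SE 0.167, 95% interval -0.56 to 0.20, limma adjusted p = 0.579). Its other 3 probe sets, all past the filter, had differences of -0.17, -0.20 and -0.40, the last with an adjusted p of 0.225 by limma. In each of these 3, clone 2 was the lowest line and clone 11 the highest, so clone 3 lay below clone 2 in 1 of the 4 probe sets of this gene. The Pearson correlation of the 3 with that probe set over the 6 lines was 0.75 to 0.90. Probes of one transcript share the RNA of each array, so this is a description.

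Cldn3 and Cldn4 lie 39.3 kb apart on chromosome 5 (Cldn4 at chr5:134945123-134946934 and Cldn3 at chr5:134986214-134987476, GRCm38.p6), and both had their highest signal in clone 11. Over all tested probe sets, 0.817% were called higher in clone 2 and 1.67% lower. Within 1 Mb of Cldn4, 26 other genes passed the filter, with Mettl27 2.49 kb and Hspb1 941 kb away. Of these, 1 was called higher in clone 2, the small heat shock protein gene Hspb1 (log2 difference 1.79, limma adjusted p = 0.0432), and none lower, and the median difference was 0.07. Mettl27, the nearest, differed by -0.19 (limma adjusted p = 0.637).

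The RefSeq promoters of this pair, 250 bases before to 50 after the annotated start, are shown because the genes are neighbours with the same highest line. Capitals mark matches on either strand to GGGCGG, the GC box bound by Sp1-type factors, or to CAGGTG, an E-box that Snail and Zeb repressors can bind. Cldn4 is on the minus strand at chr5:134946885-134947184 and Cldn3 on the plus strand at chr5:134985964-134986263, GRCm38.p6.
Cldn4 promoter: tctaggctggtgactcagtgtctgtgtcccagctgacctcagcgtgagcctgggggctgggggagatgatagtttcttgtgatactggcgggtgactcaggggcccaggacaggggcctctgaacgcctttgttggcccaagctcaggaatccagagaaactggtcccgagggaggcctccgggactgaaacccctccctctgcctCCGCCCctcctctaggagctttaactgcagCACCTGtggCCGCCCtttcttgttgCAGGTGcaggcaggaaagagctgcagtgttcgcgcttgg
Cldn3 promoter: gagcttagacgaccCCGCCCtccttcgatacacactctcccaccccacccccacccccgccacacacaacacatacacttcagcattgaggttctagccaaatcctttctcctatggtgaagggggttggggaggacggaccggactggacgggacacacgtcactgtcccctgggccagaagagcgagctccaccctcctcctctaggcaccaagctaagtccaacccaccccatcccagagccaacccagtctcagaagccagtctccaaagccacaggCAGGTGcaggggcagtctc
The Cldn4 window held 2 GC boxes and 2 E-boxes, at -14 and 12 from the start, and the Cldn3 window held 1 of each, the E-box at 32. Among 32851 promoters of the same length, 35.7% held a GC box and 20.2% the E-box. Neither window held AACNNGTT, a core of grainyhead-like factors, which 4.2% of promoters held. These are matches of letters and not shown to be bound. Grhl2, an activator of Cldn4 in other epithelia, had 1904 in clone 2, against 1907 ± 112 (SD, n = 5), a difference that did not pass (limma adjusted p = 0.999). Snai1, Snai2, Zeb1 and Zeb2 were below the filter in these lines.

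Cldn8, which limits back-leak of sodium and holds claudin-4 at the junction, varied most among the claudins tested. Its signal was 3491 in clone 2, against 9127 in clone 3, 614.9 in clone 9, 9066 in clone 10, 8299 in clone 11 and 6128 in the original cells. Clone 9 was low, clone 2 stood between it and the rest, and the groups overlapped through clone 9 alone. The expressing lines averaged 6647 ± 3584 (SD, n = 5), and the other 4 exceeded clone 9 by 13.3 times on average. The SD of 1.66 on the log2 scale was higher than that of 99.7% of the probe sets tested. Clone 2 differed by -0.47 on the log2 scale (95% interval -3.21 to 2.27, SE 1.21, limma adjusted p = 0.867), an interval that allows changes of several-fold either way. Without clone 9, the difference was -1.20 and passed (limma adjusted p = 0.0215, where 4.19% of probe sets were called), and the mean of the 4 lines, 8155 ± 1403 (SD, n = 4), was 2.34 times clone 2. With all 5 expressing lines the fall in clone 2 was not called under any other setting tried. Clone 9 is singled out here by its own Cldn8 signal, and leaving it out removes the only overlap, so the result without it is a description.

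Clone 9 had the second highest Aqp2 signal of the 6 lines, so the line with the least Cldn8 was not one with little Aqp2. Of 11 principal cell markers besides Aqp2, 4 were at their lowest in clone 9 among the expressing lines and 4 at their highest, where each other expressing line was lowest for 0 to 3 of them and highest for 0 to 5. One of the 4 lowest was Scnn1g, the gamma subunit of the epithelial sodium channel, with 108 in clone 2, against 182.7 in clone 9, 872.5 in clone 3, 987.9 in clone 10, 829.7 in clone 11 and 377.7 in the original cells. One of the 4 highest was Hsd11b2, the enzyme that inactivates glucocorticoids in aldosterone target cells, with 2580 in clone 2, against 6671 in clone 9 and 3316 to 5802 in the other expressing lines. The summed signal of the 11 markers was 16120 in clone 2 and 31211 in clone 9, within the 30703 to 32149 of the other expressing lines. Their part in the Cldn8 difference was not tested. Over 10335 other genes, the patterns most like Cldn8 over the 6 lines were those of the cap-binding protein gene Eif4e (Pearson r = 0.993), the kinase gene Map2k3 (0.991) and Gm36457 (0.990). Eif4e had 4248 in clone 2, against 3643 in clone 9 and 4561 to 4687 in the other expressing lines, so it shared the low places of clone 9 and clone 2 but not the order of the other lines, and little of the size. For Cldn7 the most alike were Rhbdf1 (0.987), Eif1ad (0.984) and Trmo (0.983). With 6 points chosen from so many genes, such values are a description, and all genes share the same arrays.

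Taken as a group, the 4 collecting duct claudins had 1 positive difference and a median of -0.32 in clone 2, where the median over all probe sets tested was -0.03 and 47.5% were positive. The 5 claudins of other segments, below the filter or not, had 4 positive differences and a median of 0.52. Of these positive ones, Cldn19 differed by only 0.01, and its sign changed under 3 of 9 alternatives. Over all 45037 probe sets, tested or not, the median was -0.05. Cldn10, Cldn16 and Cldn19 were not tested. Among the 4 collecting duct claudins and the 2 of other segments that were tested, 0 were called in either direction. Of all tested probe sets, 2.49% were. These counts describe chosen genes and carry no test. Of the principal cell markers besides Aqp2, 3 of the 10 tested fell in clone 2, where 1.67% of all tested probe sets did so. All 11 on the array, 1 of them below the filter, summed to 16120 in clone 2, against 30703 to 32149 in the expressing lines. Their part in the claudin differences was not tested.

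**Figure D2:**
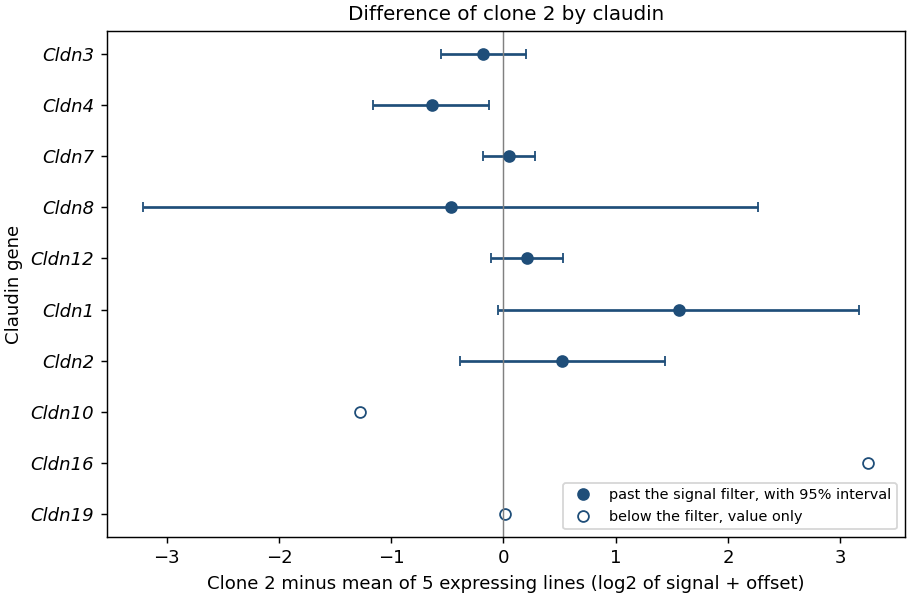
Points give the clone 2 value minus the mean of the 5 expressing lines on the log2(signal + 18.8) scale, 1 row per claudin, with limma's 95% interval for the 7 tested genes and open points for the 3 below the filter. The interval of Cldn7 spans -0.18 to 0.28, that of Cldn8 spans -3.21 to 2.27, and only that of Cldn4 leaves out 0 before adjustment.

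Cldn16, a thick ascending limb claudin needed there for magnesium and calcium reabsorption, stood far higher in clone 2 than elsewhere. Its signal was 198 in clone 2, against 2.88 in clone 3, 3.00 in clone 9, 2.70 in clone 10, 6.12 in clone 11 and 5.645 in the original cells. The groups did not overlap. Clone 2 stood at percentile 61.5 of its array, whereas the expressing lines stood between percentiles 5.26 and 13.1 of theirs, where MAS5 signals are noisy. The log2 difference was 3.25 with the offset of 18.8 and depended on it, at 5.70 with no offset and 2.50 with a doubled one. The mean over 6 arrays, 36.4, kept Cldn16 out of the main test. With no filter, where 0.466% of probe sets were called, it was called in clone 2 (limma adjusted p = 0.0119), but not without the original cells (0.0581) or with no offset (0.0562). Cldn16 has a single probe set, and no detection call was used here.

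Cldn19, the partner of claudin-16 in the thick ascending limb, did not follow it. It had 27.1 in clone 2, against 69.9 in clone 3, 36.8 in clone 9, 8.67 in clone 10, 7.20 in clone 11 and 38.0 in the original cells, and clone 2 lay inside this range. Among the markers of that segment, Umod, the gene of its secreted protein uromodulin, had 113.4 in clone 2, against 26.5 in clone 3, 36.0 in clone 9, 14.7 in clone 10, 4.06 in clone 11 and 30.8 in the original cells. Slc12a1, the defining cotransporter, had 23.7 in clone 2, within 2.77 to 46.0 for the expressing lines. The summed signal of the 6 markers was 255.5 in clone 2, against 161.8 to 219.4 in the expressing lines. Without Umod, the other 5 markers summed to 142.2 in clone 2, against 146.7 to 188.9 in the expressing lines, so clone 2 was then the lowest. None passed the filter, and their part in the Cldn16 difference was not tested.

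Cldn1, a barrier claudin of many epithelia that in the kidney marks the parietal cells of Bowman's capsule, was also highest in clone 2. It had 369.2 in clone 2, against 163.2 in clone 3, 272.7 in clone 9, 124.5 in clone 10, 74.6 in clone 11 and 36.9 in the original cells, which averaged 134 ± 91.0 (SD, n = 5). The groups did not overlap, but the expressing lines spread over 7.40 times. The log2 difference was 1.56 (SE 0.711, 95% interval -0.05 to 3.17, limma adjusted p = 0.263). No step between neighbouring lines exceeded the SD of 0.913. Of its other 3 probe sets, all below the filter, 1 followed the same order closely (r = 0.97 over 6 lines) with a difference of 0.56, and clone 2 stood there at 83.6, below clone 9 at 89.1. Of 4 parietal cell and podocyte markers on the array 2 passed the filter and 0 the test. Their summed signal was 3021 in clone 2, against 3365 to 3857 in the expressing lines. Most of this sum was Pax8, with 2393 in clone 2, against 2857 to 3123 in the expressing lines, so it says little of the other markers. Their part in the Cldn1 difference was not tested.

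Cldn1 and Cldn16 are neighbours on chromosome 16, 91.3 kb apart (Cldn1 at chr16:26356645-26371839 and Cldn16 at chr16:26463135-26482765, GRCm38.p6). The other genes within 1 Mb that passed the filter did not pass the test. Il1rap, an interleukin-1 receptor chain 98.7 kb from Cldn16, differed by 0.36 (limma adjusted p = 0.406). P3h2, a collagen prolyl hydroxylase on the far side of Cldn1, differed by -0.01 (0.989) and Ccdc50 by 0.14 (0.599).

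Their promoters are shown because both genes had their highest signal in clone 2. Capitals mark GGGCGG on either strand, with Cldn1 on the minus strand at chr16:26371790-26372089 and Cldn16 on the plus strand at chr16:26462885-26463184, GRCm38.p6.
Cldn1 promoter: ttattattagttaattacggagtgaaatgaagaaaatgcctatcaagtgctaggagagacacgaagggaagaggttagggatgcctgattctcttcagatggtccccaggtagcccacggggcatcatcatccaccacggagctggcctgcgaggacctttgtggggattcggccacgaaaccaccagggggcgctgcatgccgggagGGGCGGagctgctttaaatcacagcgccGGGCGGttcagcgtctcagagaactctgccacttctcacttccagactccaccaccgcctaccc
Cldn16 promoter: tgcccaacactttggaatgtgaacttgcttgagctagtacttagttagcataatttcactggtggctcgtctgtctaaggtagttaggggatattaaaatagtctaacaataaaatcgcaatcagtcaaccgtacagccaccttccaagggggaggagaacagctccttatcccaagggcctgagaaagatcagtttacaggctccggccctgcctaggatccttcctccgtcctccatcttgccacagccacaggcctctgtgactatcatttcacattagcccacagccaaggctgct
The Cldn1 window held 2 GC boxes, at -42 and -14 from the start, and the Cldn16 window held none of the motifs searched, which also included TATAAA (in 13.6% of promoters). The base composition differed, with 56% G and C and 15 CpG dinucleotides for Cldn1 and 48.7% and 5 for Cldn16, where the median promoter had 52.7% G and C.

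Cldn2, the sodium and water pore of the proximal tubule, showed a small difference of the same sign. It had 161.2 in clone 2, against 148.7 in clone 3, 153.2 in clone 9, 86.5 in clone 10, 75.7 in clone 11 and 87.95 in the original cells. Clone 2, clone 9 and clone 3 were close together and the other lines lower. The log2 difference was 0.52 (SE 0.403, 95% interval -0.39 to 1.44, limma adjusted p = 0.502). Cldn2 is X-linked, and the median difference of 297 X-linked genes was 0.47. For the 9 genes past the filter within 1 Mb of Cldn2 it was 0.16. The chromosomes of the other claudins among the 10 had medians of 0.07 to 0.19. Chromosome 17, which carries Cldn6 and Cldn9 described below, had -0.37. Whether the X chromosome had a part in the Cldn2 difference was not tested. The second probe set of Cldn2 was below the filter and went the other way (-0.08). Of 10 proximal tubule markers, only the endocytic receptor gene Lrp2 passed the filter, and it fell in clone 2, at 115.6 in clone 2 against 942 ± 121 (SD, n = 5; limma adjusted p = 0.00247). The summed signal of the 10 was 427.1 in clone 2, against 1044 to 1358 in the expressing lines. Lrp2 alone had 808.7 to 1067 in the expressing lines, so the gap in the sum lay with this gene and not with the set. The part of these markers in the Cldn2 difference was not tested.

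Cldn10, which has an anion-selective form in the proximal tubule and a cation-selective one in the thick ascending limb, went down rather than up. It had 2.86 in clone 2, against 43.6 in clone 3, 28.9 in clone 9, 45.1 in clone 10, 35.8 in clone 11 and 20.6 in the original cells. The groups did not overlap, but all these signals were low and the gene was not tested. The log2 difference was -1.28 with the offset of 18.8, -3.55 with none and -0.83 with a doubled one, and with no filter it did not pass (limma adjusted p = 0.244). The single probe set does not tell the forms apart here.

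Cldn12, a broadly expressed claudin that lacks the usual scaffold-binding tail, was put in neither group. It had 4475 in clone 2, against 4215 in clone 3, 3924 in clone 9, 3613 in clone 10, 3505 in clone 11 and 4088 in the original cells. Clone 2 was highest, and the log2 difference was 0.21 (SE 0.141, 95% interval -0.11 to 0.53, limma adjusted p = 0.437). Its other probe set differed by 0.20 (adjusted p = 0.655 by limma), with clone 10 above clone 2.

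**Figure D3:**
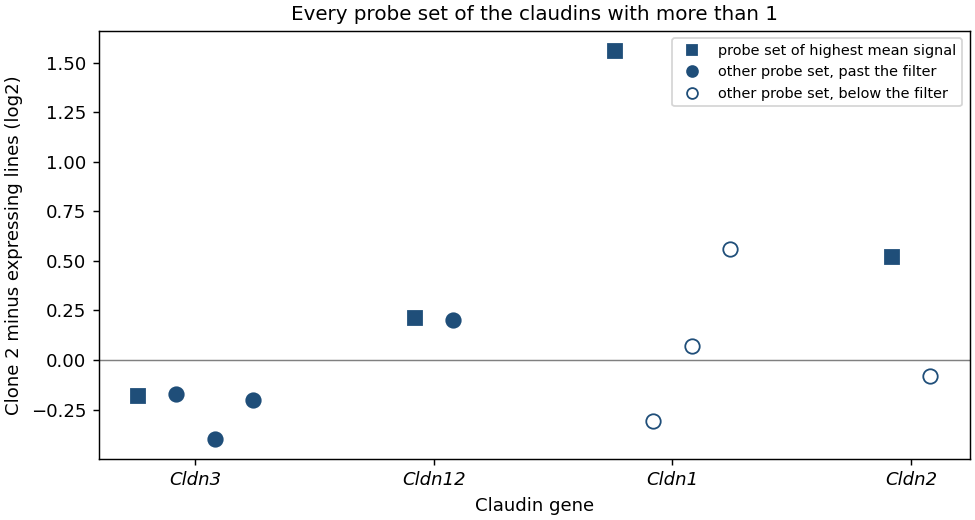
The vertical axis is the clone 2 minus expressing-line difference on the log2 scale for every probe set of the 4 claudins that have more than 1, with squares for the probe set of highest mean signal and open circles for those below the filter. All 4 other probe sets past the filter have the sign of the main one, while those of Cldn1 and Cldn2 below the filter lie between -0.31 and 0.56.

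The study was designed to find transcripts that follow AQP2 mRNA across the lines, and the claudins were fitted against the Aqp2 signal for that question. This fit uses the same arrays as the comparison of clone 2, so it is not a second line of evidence. Of the 7 tested claudins, 0 passed by limma and 1, Cldn4, had an unadjusted p under 0.05, as 19.9% of probe sets did in this fit. Over all, 1.76% of 22517 probe sets were called, 1.02% with a positive and 0.742% with a negative slope. The slope of Cldn4 was 0.15 log2 units per doubling of Aqp2 (95% interval 0.06 to 0.25, unadjusted p = 0.00614, limma adjusted p = 0.101). That of Cldn3 was 0.06 (adjusted p = 0.356) and that of Cldn1 was -0.33 (adjusted p = 0.26), both by limma. For Cldn7 the interval was -0.05 to 0.05, and for Cldn8 it was -0.65 to 0.50. Without clone 2, that is among the 5 expressing lines alone, the slope of Cldn4 was 0.13 (limma adjusted p = 0.609) and that of Cldn8 was -0.64 (0.659). The sign of the Cldn8 slope rested on clone 9, since without that line it was 0.20 (limma adjusted p = 0.192).

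**Figure D4:**
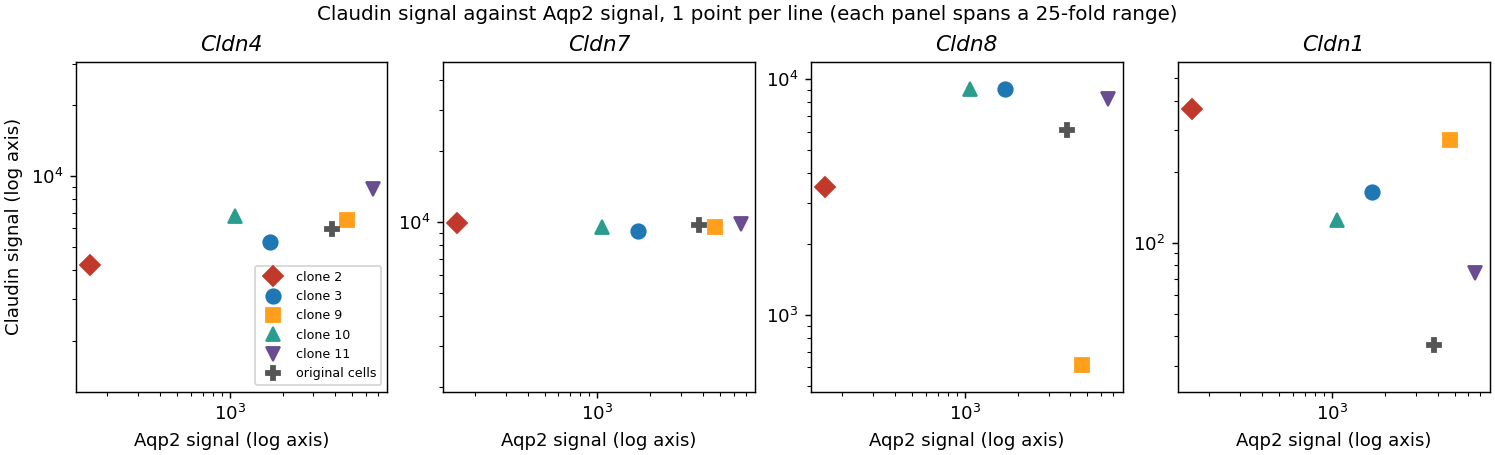
Signals of Cldn4, Cldn7, Cldn8 and Cldn1 are plotted against the Aqp2 signal, both on log axes, with 1 point per line and the same 25-fold vertical span in each panel. Cldn4 is lowest in clone 2 (4193) and highest in clone 11 (8839), Cldn7 is flat, and clone 9 lies far below the other lines for Cldn8 (614.9).

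Of 14 other claudin genes on the array, 3 passed the filter, Cldn6, Cldn9 and Cldn23, and all were lower in clone 2 without passing the test, and all 3 had an unadjusted p under 0.05, as 20% of tested probe sets did. Cldn6, a claudin of immature epithelia, had 2873 in clone 2, against 5008 ± 664 (SD, n = 5; log2 difference -0.79, limma adjusted p = 0.0548). This adjusted p fell just below the threshold with the stricter filter (0.0482), quantile normalization (0.0497), a robust fit (0.0462) or without clone 9 (0.0425). Cldn9, best known from the inner ear, had 492.4 in clone 2, against 1642 ± 671 (SD, n = 5; log2 difference -1.62, limma adjusted p = 0.0731), and it was called without clone 9 (0.0298), without clone 11 (0.0464) and with probe sets averaged per gene (0.0474). Its second probe set was called, at 179.2 in clone 2 against 409 ± 56.2 (log2 difference -1.10, limma adjusted p = 0.0443), a value named after it was seen. The Aqp2 slope of Cldn6 was 0.18 and passed (limma adjusted p = 0.0369). That call was lost without the trend (0.106), with no filter (0.0858) or averaged probe sets (0.0512), and without clone 3 (0.0626), clone 9 (0.0573), clone 11 (0.107), the original cells (0.0557) or clone 2 (0.46). Cldn6 and Cldn9 lie 0.138 kb apart on chromosome 17, where the median difference of 507 genes was -0.37. Whether the chromosome had a part in their differences was not tested.

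Among 28 partners of claudins at the junction, 25 had a probe set of their own and 22 passed the filter. None was called in clone 2 by limma, where 2.49% of all tested probe sets were. An unadjusted p under 0.05 was found for 7 (20% of all tested probe sets had one), and 5 differences were positive, with a median of -0.21. Epcam, an adhesion protein that binds and stabilises claudin-7, had 11144 in clone 2, against 13832 ± 1479 (SD, n = 5; limma adjusted p = 0.286). Ybx3, a junction-associated transcription factor, had 14484 in clone 2, against 13246 ± 590 (SD, n = 5; limma adjusted p = 0.521). In the Aqp2 fit 1 of the 22 passed, where 1.76% of all probe sets did. It was the angiomotin-like scaffold Amotl1, with a slope of 0.27 (limma adjusted p = 0.0279). Over all probe sets, the 397 calls of this fit fell to 1 without the mean-variance trend and to 3 without clone 2.

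Of 28 genes listed here as regulators of claudins, 18 passed the filter, and 1 of them fell in clone 2, with none rising. Of all tested probe sets, 1.67% were called lower and 0.817% higher. The gene that fell was the transcription factor Gata3, which is also 1 of the principal cell markers counted above. Gata3 had 2109 in clone 2, against 3807 ± 148 (SD, n = 5; log2 difference -0.85, limma adjusted p = 0.0146), a call lost without the mean-variance trend (0.0577). The proteases and inhibitors of the list did not pass, among them Prss8, the channel-activating protease prostasin, with 993.5 in clone 2, against 1143 ± 117 (SD, n = 5; limma adjusted p = 0.58). The median difference of the 18 was -0.15, and 4 had an unadjusted p under 0.05, against 20% of all tested probe sets. In the Aqp2 fit 0 of them passed by limma and 6 had an unadjusted p under 0.05, against 19.9% of all.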

How the data were processed

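The authors deposited linear MAS5 intensities. The submitters' processing notes name Affymetrix Expression Console, version 1.1. With 2% of probe sets trimmed at each end, every array averaged 500, as checked on the deposited intensities, and no source used here gives further steps. After removal of 64 control probe sets, 45037 remained, and 34945 had 1 gene in the annotation of the platform. Symbols were brought up to date by gene identifier against assembly GRCm38.p6.

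The deposited intensities were converted here to log2 after adding 18.8, their 25th percentile, which shrinks differences between dim probe sets. Testing took the probe sets whose mean exceeded 85.5, the median of the means, with limma 3.58.1 in R 4.3.3 (lmFit, eBayes with a mean-variance trend, Benjamini-Hochberg adjustment over 22518 probe sets, two-sided). Clone 2 was set against the 5 expressing lines, with 4 residual degrees of freedom, and was assumed to vary like them. A second fit took the log2 Aqp2 signal as predictor. The tests were checked on simulated data. For clone 2, 0.4% of true log2 changes of 0.5 were recovered, and 21.6%, 69.2% and 96.4% of changes of 1, 2 and 4. For the Aqp2 fit, with sizes taken over the whole Aqp2 range, the shares were 0.4%, 17.2%, 68.8% and 91.6%. In the simulation, changes of 1 or less therefore mostly went uncalled. These shares pool probe sets of every spread and do not hold for each gene. Among the tested claudins the SE for clone 2 ran from 0.102 for Cldn7 to 1.21 for Cldn8.

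The members and gene lists were chosen with earlier results of these data known. All 10 claudins were named, with Aqp2, and from each further tight junction list its called members, or its 2 brightest if it had no call. Gene neighbours were named by distance, and genes of like pattern as the 3 of highest Pearson correlation. Genes named outside this rule are Cldn23, Lrp2, Scnn1g, Hsd11b2, Umod, Slc12a1, Hspb1, Prss8, Grhl2, Snai1, Snai2, Zeb1, Zeb2, Amotl1 and Pax8. All of these were chosen after their values were seen. Alternatives were other offsets, filters, normalizations and variance models, averaged probe sets, and each line left out. Promoters are from RefSeq, which gave one for 9 of the 10 genes.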

Additional observations from a re-analysis of the deposited data

Results flagged for a closer look

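Among 25 probe sets examined in the 5 expressing lines, 3 had a line that stood apart from the others, and chance gives about 1 in 20. For Cldn8, clone 9 was far below the rest, with a gap of 0.851 of the whole range on the log2 scale against a critical value of 0.710. For Ybx3 the original cells were lowest, with a gap of 0.711 of the range. For one further probe set of Cldn3, clone 11 was highest, at 5672 against 4745 to 4993 in the other expressing lines, a gap of 0.714.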

How the results depend on the processing

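With 1 array per line, a difference of clone 2 rests on a spread taken from 5 lines, and MAS5 signals near the bottom of the array, as for Cldn10, Cldn16 and Cldn19, are noisy. Of 225 single results of the claudins under alternatives, 217 stayed on the same side of the threshold, 8 newly passed and 0 passed with the opposite sign. The newly passing ones were Cldn8 without clone 9 and, for Cldn16, 7 settings with no filter. The alternatives that join the absence of a filter with another choice were added after seeing the data. The number of claudins called in clone 2 was 1 with no filter, and between 0 and 1 with an expressing line left out. It was 0 for the Aqp2 slope in each setting by limma, with 0 to 3 claudins at an unadjusted p under 0.05. Over all probe sets, the 560 calls of clone 2 became 219 without the mean-variance trend, 234 with probe sets averaged per gene, 210 with no filter and 154 (without the original cells) to 943 (without clone 9) with a line left out. The 397 calls of the Aqp2 slope became 1, 84 and 51 in the first 3 of these settings, 3 without clone 2 and 0 to 645 with an expressing line left out, the 645 being without clone 10 and the 0 being without clone 11, where 3898 probe sets had an unadjusted p under 0.05. The call of Aqp2 itself in clone 2 was lost in 6 settings. No paired analysis was possible because each line had 1 array and the labels give the lines no shared replicate numbers.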
